A study of Mus musculus with 12 samples.

Results

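The genes described here handle vitamin A in the small intestine and comprise 9 of the 18820 genes measured, chosen by name from the retinoid pathway. Each was read by exactly 1 probe set annotated to that gene alone. They were Rbp2, Lrat, Bco1 and Isx, which serve uptake, storage and its control in the epithelium, and Adh4, Rdh7, Aldh1a1, Aldh1a2 and Aldh1a3, which encode enzymes that oxidise retinol to retinal and retinal to retinoic acid. RNA came from the proximal jejunum of 12 mice, 1 Affymetrix array per mouse and 3 mice in each of 4 groups. The groups were untreated wild type, C57BL6/J; wild type given methotrexate, an antifolate that blocks DNA synthesis and injures the gut lining; untreated TLR2 knockout, labelled B6.129-Tlr2tm1Kir/J; and knockout given methotrexate. Methotrexate was injected intraperitoneally at 40 mg per kg body weight per day for 4 days, and treated mice were killed on day 7. No injection or day of sampling is recorded for the untreated mice, so those effects cannot be told apart from that of the drug. The labels state neither that the knockouts were littermates of the wild type nor the age of the mice.

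Dietary vitamin A reaches the enterocyte as retinyl ester or as provitamin A carotenoid. BCO1 cleaves beta-carotene to retinal, RBP2 binds retinol and retinal inside the enterocyte, and LRAT esterifies retinol for packing into chylomicrons or for storage. ISX is an intestinal homeobox repressor that retinoic acid induces and that lowers Bco1 and Scarb1, the gene of a carotenoid receptor. In the other branch, alcohol and short-chain dehydrogenases make retinal, and the retinaldehyde dehydrogenases ALDH1A1, ALDH1A2 and ALDH1A3 make retinoic acid, the ligand of the RAR nuclear receptors. Gut epithelium, dendritic cells and stromal cells are all known to make it.

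Promoter sequences are shown for 4 genes because they set side by side the members that fell, did not change in the test, or rose after methotrexate in the knockout. The RefSeq table of build GRCm38.p6 matched 8 of the 9 members by symbol, in 10 windows, and Aldh1a3 was not matched. Each window is the 250 bases before the transcription start, written 5′ to 3′ on the plus strand. They are chr9:98490287-98490536 for Rbp2, chr3:138415247-138415496 for Adh4, chr8:117095615-117095864 for Bco1 and chr9:71215539-71215788 for Aldh1a2. Capitals mark AGGTCA, the half-site of nuclear receptors such as RXR and HNF4A, on either strand.
Rbp2: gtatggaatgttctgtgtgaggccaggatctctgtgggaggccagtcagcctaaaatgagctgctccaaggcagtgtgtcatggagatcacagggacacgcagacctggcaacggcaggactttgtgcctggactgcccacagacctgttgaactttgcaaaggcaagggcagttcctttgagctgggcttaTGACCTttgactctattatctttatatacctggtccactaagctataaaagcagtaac
Adh4: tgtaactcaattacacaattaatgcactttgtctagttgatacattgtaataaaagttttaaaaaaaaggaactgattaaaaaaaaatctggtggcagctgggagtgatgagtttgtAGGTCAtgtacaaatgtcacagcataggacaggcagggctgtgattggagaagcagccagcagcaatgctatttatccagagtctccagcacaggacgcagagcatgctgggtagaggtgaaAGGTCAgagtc
Bco1: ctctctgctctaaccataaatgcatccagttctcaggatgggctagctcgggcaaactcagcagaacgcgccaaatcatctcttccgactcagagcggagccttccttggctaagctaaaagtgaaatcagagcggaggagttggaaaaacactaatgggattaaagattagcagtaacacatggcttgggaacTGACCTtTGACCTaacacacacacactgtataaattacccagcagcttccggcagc
Aldh1a2: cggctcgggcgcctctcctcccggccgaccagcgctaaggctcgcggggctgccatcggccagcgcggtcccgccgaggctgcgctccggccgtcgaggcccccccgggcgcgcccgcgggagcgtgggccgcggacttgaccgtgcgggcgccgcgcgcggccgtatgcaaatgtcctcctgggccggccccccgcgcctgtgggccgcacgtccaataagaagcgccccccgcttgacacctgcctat

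The half-site AGGTCA stood in 4 of the 10 member windows, those of Rbp2, Adh4, Bco1 and 1 of the windows of Rdh7, against 14.0% of the 32851 windows of all genes. Its longer form CAAAGGTCA, which overlaps it, stood in the windows of Rbp2 and Bco1 and in 0.426% of all windows. Bco1 also held AGGTCANAGGTCA, a direct repeat spaced by 1 base that contains both shorter motifs, 56 to 44 bases before the start on the minus strand. That repeat was in 0.0335% of all windows. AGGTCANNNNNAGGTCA, the repeat spaced by 5 bases that RAR and RXR bind as a pair, was in none of the 10 windows and in 0.00913% of all. The GATA motif AGATAA was in the windows of Rbp2 and Aldh1a1 and in 9.99% of all. The Aldh1a2 window had a GC content of 77.6% with 40 CpG dinucleotides, and the windows of Rbp2, Adh4 and Bco1 had 50.0%, 41.6% and 48.0% with 2, 1 and 7. The median GC content over all windows was 52.4%. Motifs were searched on both strands and chosen with these sequences in view, and a match is a description of letters only.

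Pancreatic acinar genes marked 7 of the 12 arrays. The mean of 10 of them lay between 12.12 and 12.65 in these arrays and between 3.92 and 5.56 in the other 5, and the 7 were 2 of 3 in each group other than treated wild type, where it was 1 of 3. The enterocyte list, 12 genes of brush border and lipid transport, was high in the 9 arrays outside the treated knockout, with means of 11.11 to 11.56. The single Tlr2 probe set was not lower in arrays labelled knockout in the untreated mice (knockout minus wild type 0.32 ± 0.23 on the log2 scale, limma adjusted p = 0.812). It was higher in those labelled knockout after methotrexate (1.09 ± 0.23, adjusted p = 0.00285), at 5.28 to 6.18 against 4.49 to 4.65. Where it lies with respect to the targeted exon was not checked, so genotypes are given as labelled and each difference between them is one between labels.

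After methotrexate in the knockout, 5 of the 9 retinoid genes fell while 2 of the 3 retinaldehyde dehydrogenase genes rose. Of the 4 genes of uptake, storage and control, Rbp2 and Isx fell, and Lrat and Bco1 did not pass the test. Of the 5 enzyme genes, Adh4, Rdh7 and Aldh1a1 fell, and Aldh1a2 and Aldh1a3 rose. In the wild type none of the 9 passed. Limma's test with Benjamini-Hochberg adjustment over all genes called 7 of the 9 in the knockout, where 34.8% of all genes were called, 18.8% higher and 16.0% lower. In the wild type it called 0 of 9, and 0.0744% of all genes were called. At an unadjusted p under 0.05 there were 2 members in the wild type, Lrat and Adh4, and 11.7% of all genes. No array overlapped between treated and untreated mice for 3 of 9 members in the wild type and 8 of 9 in the knockout, as against 22.6% and 44.6% of all genes. The groups hold mice, but neither litter nor batch is given, so p-values measure the spread between these mice only. In whole tissue, fewer cells of a type and less RNA per cell cannot be told apart.

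**Figure D1:**
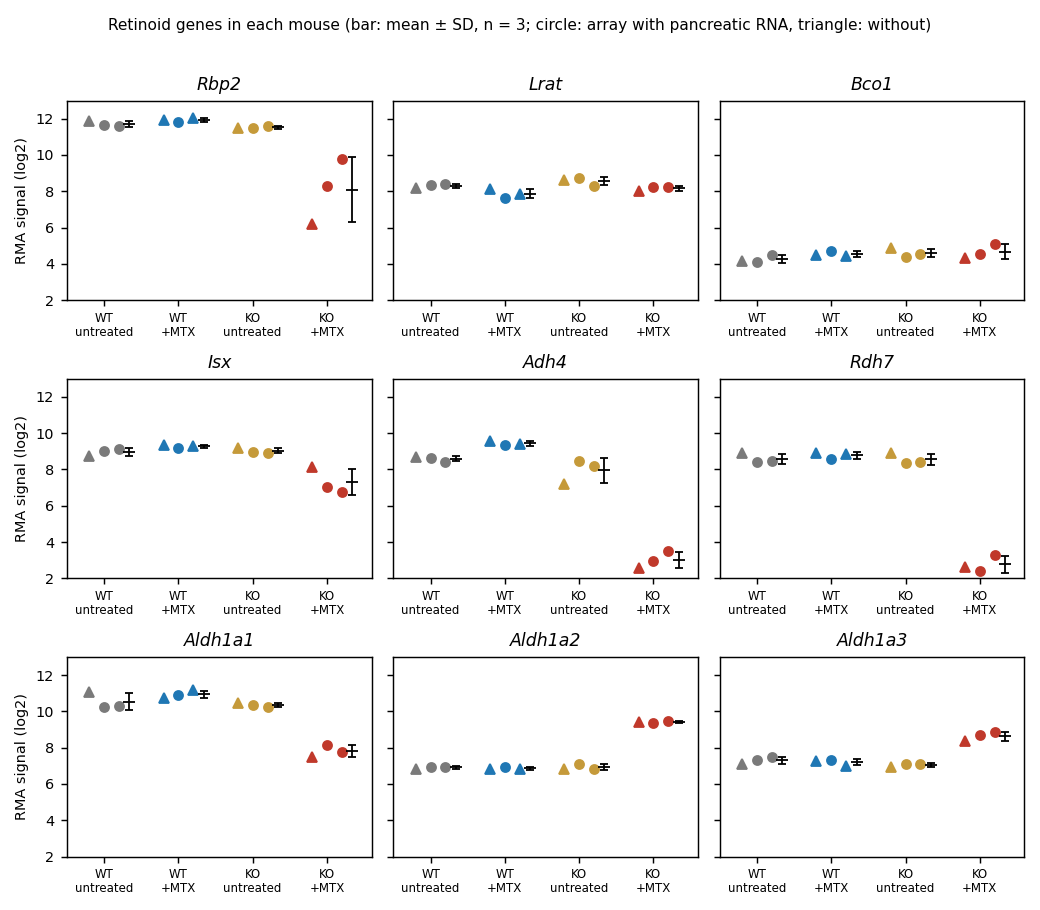
RMA signal (log2 units, vertical axis) of the 9 retinoid genes in each of 12 mice by group, with mean ± SD (n = 3) beside the points; circles are arrays with pancreatic RNA and triangles arrays without. The 3 treated knockout mice lie below all others for Rbp2, Isx, Adh4, Rdh7 and Aldh1a1 and above all others for Aldh1a2 and Aldh1a3.

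Rbp2 (probe set 10588043), the enterocyte's retinol-binding protein, read 11.89, 11.67 and 11.58 in untreated wild-type mice and 11.91, 11.80 and 12.01 in treated ones. It read 11.48, 11.46 and 11.62 in untreated knockouts and 6.20, 8.28 and 9.76 in treated ones. The 9 arrays outside the treated knockout lay within a narrow band, and the treated knockouts were all below it and far apart from each other. The change in the knockout was -3.44 ± 0.63 (standard error, limma adjusted p = 0.0012), which is 10.9-fold lower, and in the wild type 0.19 ± 0.63 (adjusted p = 0.921). The effects differed between genotypes by -3.63 ± 0.89 (adjusted p = 0.011 for the interaction). The size depended on single mice in both directions. Without replicate 1 of the treated knockout the fall was 5.66-fold (-2.50 ± 0.32, limma adjusted p = 0.000116), and without replicate 3 it was 19.5-fold. The enterocyte list ran in the same order in these 3 mice, with means of 6.20, 7.34 and 8.32, and its part in the fall of Rbp2 was not tested.

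Isx (probe set 10572865) read 8.74, 9.01 and 9.14 in untreated and 9.32, 9.16 and 9.32 in treated wild-type mice. Knockout mice read 9.18, 8.99 and 8.92 untreated and 8.11, 7.03 and 6.74 treated. The treated knockouts were the lowest arrays, and their order was the reverse of that for Rbp2, the mouse with the lowest Rbp2 holding the highest Isx. That mouse, replicate 1, was also the only treated knockout without acinar RNA. In knockout arrays with that RNA Isx changed by -2.07, and in those without it by -1.07. Isx fell 3.33-fold in the knockout (-1.73 ± 0.28, limma adjusted p = 0.00045), and the effects differed between genotypes by -2.04 ± 0.39 (adjusted p = 0.00252). The wild-type arrays did not overlap, with treated mice slightly higher (0.30 ± 0.28), but the difference did not pass (adjusted p = 0.659).

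For both genes that ISX is known to repress, the test could not tell treated from untreated levels. Bco1 (probe set 10575750), the carotene cleavage enzyme, read 4.17, 4.08 and 4.51 in untreated and 4.49, 4.71 and 4.43 in treated wild type, then 4.85, 4.39 and 4.57 in untreated and 4.34, 4.57 and 5.11 in treated knockout. All 4 groups overlapped. Its change was 0.07 in the knockout, with a 95% interval of -0.37 to 0.51, and 0.29 in the wild type, with an interval of -0.14 to 0.73. This signal was dim, at the 39.4th to 42.7th percentile of all genes by group mean, so small changes may not show. Scarb1 read 6.26, 9.13 and 9.21 in untreated and 8.08, 8.32 and 8.41 in treated knockouts. Its interval of -1.43 to 1.57 in the knockout was wide, and the low untreated array was the one without acinar RNA. Knockout arrays with that RNA went from 9.13 and 9.21 to 8.32 and 8.41, and those without it from 6.26 to 8.08. In untreated wild type the array without it was also the lowest, at 7.31 against 8.87 and 9.07. Treated wild type read 8.80, 8.46 and 8.35, with that RNA only in replicate 2.

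Lrat (probe set 10498978), the retinol esterifying enzyme, read 8.17, 8.32 and 8.40 in untreated and 8.12, 7.64 and 7.86 in treated wild type. Knockouts read 8.60, 8.74 and 8.31 untreated and 8.01, 8.26 and 8.22 treated. In both genotypes all treated mice lay below all untreated ones, by small steps. The changes were -0.42 ± 0.15 in the wild type (limma adjusted p = 0.321) and -0.39 ± 0.15 in the knockout (adjusted p = 0.0636), neither past the threshold. The 2 effects differed by 0.04, with a 95% interval of -0.42 to 0.49. Its interval in the knockout, -0.71 to -0.06, lay above that of Rbp2, -4.83 to -2.06.

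Rdh7 and Adh4 showed the largest falls of the 9 members in the knockout. Rdh7 (probe set 10373330), a short-chain dehydrogenase that acts on retinol and on steroids, read 8.89, 8.39 and 8.47 in untreated and 8.91, 8.56 and 8.86 in treated wild type. Between untreated and treated knockouts it went from 8.91, 8.38 and 8.39 to 2.63, 2.40 and 3.28. The treated knockouts stood apart from the other 9 arrays by a gap of 5.09 log2 units. The fall was -5.79 ± 0.23, or 55.3-fold (limma adjusted p = 2.21e-08), and the wild-type change was 0.19 ± 0.23 (adjusted p = 0.755).

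Adh4 (probe set 10496466), a class II alcohol dehydrogenase that can oxidise retinol, read 8.67, 8.66 and 8.42 in untreated and 9.56, 9.36 and 9.38 in treated wild type. Knockout values went from 7.17, 8.46 and 8.21 to 2.58, 2.95 and 3.48. Treated wild-type mice were the highest arrays of all and treated knockouts the lowest. The knockout change was -4.94 ± 0.30, or 30.7-fold lower (limma adjusted p = 3.29e-07). The wild-type difference of 0.85 ± 0.30 did not pass (adjusted p = 0.326), although no array overlapped. Between treated genotypes Adh4 differed by -6.43 ± 0.30 (adjusted p = 4.66e-08), and the methotrexate effects differed by -5.79 ± 0.42 (adjusted p = 3.89e-06). In treated knockouts Adh4 and Rdh7 had group means at the 21.8th and 16.7th percentile of all genes, where array signal compresses differences, so their fold changes may be understated.

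Retinaldehyde dehydrogenases divided by gene. Aldh1a1 (probe set 10461979), an abundant epithelial form, read 11.07, 10.26 and 10.29 in untreated and 10.76, 10.89 and 11.15 in treated wild type. In the knockout it fell from 10.45, 10.35 and 10.23 to 7.50, 8.17 and 7.78. The wild-type arrays overlapped through untreated replicate 1, at 11.07, and the treated knockouts were below every other array. That replicate also had the highest mean of a list of 7 adipocyte genes, 7.47 against 4.35 to 5.40 in the other arrays. The part of adipocyte RNA in its Aldh1a1 value was not tested. The change was -2.53 ± 0.23 in the knockout, or 5.77-fold lower (limma adjusted p = 5.7e-06), and 0.39 ± 0.23 in the wild type (adjusted p = 0.505). Aldh1a7, a close homologue chosen after its values were seen, fell by 2.34 ± 0.28 in the knockout (adjusted p = 6.09e-05). Whether the Aldh1a1 and Aldh1a7 probe sets cross-hybridise was not tested.

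Aldh1a2 (probe set 10586865), the form known from mesenchyme, mesothelium and gut dendritic cells, read 6.83, 6.95 and 6.95 in untreated and 6.80, 6.95 and 6.83 in treated wild type. In the knockout it went from 6.82, 7.10 and 6.83 to 9.40, 9.35 and 9.47. The 9 lower arrays spanned 0.30 log2 units and the 3 treated knockouts 0.12, with a wide gap between. The rise was 2.49 ± 0.10, or 5.62-fold (limma adjusted p = 2.24e-08), against -0.05 ± 0.10 in the wild type (adjusted p = 0.854). The 95% interval in the wild type, -0.27 to 0.17, leaves no room for a rise of that size. Unlike Rbp2, its value was nearly the same in all 3 treated knockouts.

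Aldh1a3 (probe set 10564417), a form known from epithelia and sensory tissue, read 7.11, 7.32 and 7.48 in untreated and 7.29, 7.31 and 7.00 in treated wild type. Knockout mice went from 6.91, 7.09 and 7.10 to 8.37, 8.67 and 8.86. All treated knockouts exceeded the other 9 arrays. The rise was 1.60 ± 0.15, or 3.04-fold (limma adjusted p = 7.56e-06), and the wild-type change was -0.10 ± 0.15 (adjusted p = 0.795).

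**Figure D2:**
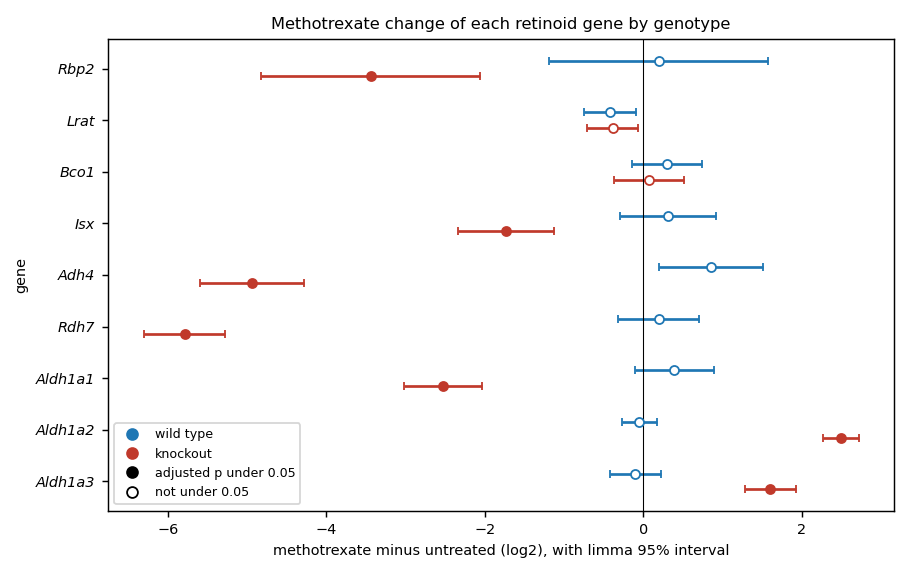
Methotrexate minus untreated (log2 units, horizontal axis) with limma 95% intervals for each retinoid gene, wild type in blue and knockout in red; filled points have an adjusted p under 0.05. The 7 filled points are all in the knockout, 5 below 0 and 2 above, and the intervals of both genotypes overlap for Lrat and Bco1.

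The interaction, the methotrexate effect in the knockout minus that in the wild type, was called for the same 7 members, where 23.8% of all genes were called. It was 2.54 ± 0.14 for Aldh1a2 and 1.70 ± 0.21 for Aldh1a3, and -2.92 ± 0.32 for Aldh1a1 and -5.98 ± 0.33 for Rdh7 (limma adjusted p from 7.29e-07 for Rdh7 to 0.000131 for Aldh1a3). Between treated genotypes 7 of 9 were called too, with 36.9% of all genes called, and that comparison shares its arrays with the previous ones. Between untreated knockouts and wild types 0 of 9 members were called, and 0.0106% of all genes were called. At an unadjusted p under 0.05 there were 0 members and 6.19% of all genes. The widest untreated difference was that of Adh4, -0.64 with a 95% interval of -1.30 to 0.02. Aldh1a3 read 6.91 to 7.10 in untreated knockouts and 7.11 to 7.48 in untreated wild types, without overlap. Its difference was -0.27, with an interval of -0.60 to 0.06. Values within arrays of like pancreatic RNA content kept the direction of all 7 changes in the knockout. Aldh1a2 rose by 2.45 in the arrays with that RNA and by 2.58 in those without, Aldh1a1 changed by -2.31 and -2.96, and Rbp2 by -2.52 and -5.28. The arrays without it were 1 untreated and 1 treated knockout.

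Other genes of the pathway, and genes known to be induced by retinoic acid, were taken as a list of 47, of which 45 were measured. The 42 measured genes grouped by role held 6 that rose and 17 that fell in the knockout. Of all 45, 8 rose and 17 fell in the knockout after methotrexate, with a median change of -0.22 against -0.02 over all genes. In the wild type 0 of 45 were called, with a median of 0.03. Over all genes 18.8% rose and 16.0% fell in the knockout, so the share of these genes that rose was near that of all genes. The list was put together with earlier results of these data known. In uptake, esterification and lipoprotein transport 7 of 13 fell and none rose in the knockout. Bco2, which cleaves carotenoids asymmetrically, fell by 4.74 ± 0.14 (limma adjusted p = 3.68e-09), Retsat, a retinol saturase, by 2.87 ± 0.13 and Dgat1, an acyltransferase that also esterifies retinol, by 2.75 ± 0.16. Mttp (-3.32) and Apob (-2.37), which build the chylomicron, the cellular retinol-binding protein gene Rbp7 (-2.63) and the serum retinol carrier gene Rbp4 (-0.73) fell as well. The retinol-uptake receptor gene Stra6 changed by 0.59 ± 0.27 (adjusted p = 0.122). Its signal was dim, with group means at percentiles 36.1 to 42.3 of all genes.

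Of 17 oxidising and reducing enzymes, 9 fell and 2 rose in the knockout, where 16.0% of all genes fell and 18.8% rose. Rdh9 (-3.24), Rdh16 (-2.20), Adh1 (-2.12) and Rdh5 (-1.82) fell with Rdh7. Rdh10, the retinol dehydrogenase that supplies retinal in mesenchyme, moved the other way: it read 8.22, 8.14 and 8.10 in untreated and 9.55, 9.45 and 9.28 in treated knockouts, a rise of 1.27 ± 0.10 (limma adjusted p = 2.18e-06). In the wild type Rdh10 changed by -0.18 ± 0.10 (adjusted p = 0.502), and the effects differed by 1.45 ± 0.14 (adjusted p = 2.75e-05). Untreated knockouts started below untreated wild types, at 8.10 to 8.22 against 8.51 to 8.60. That difference, -0.42 ± 0.10, did not pass (adjusted p = 0.727). Dhrs3, which returns retinal to retinol, fell by 0.42 ± 0.13 (adjusted p = 0.0264). In the wild type Dhrs3 changed by -0.25 ± 0.13, and its interaction did not pass (adjusted p = 0.606). The aldo-keto reductase gene Akr1b8 rose by 3.69 ± 0.60 (adjusted p = 0.000541). Near-identical members of the Rdh cluster can share probe signal, so Rdh7, Rdh9 and Rdh16 may not be independent readings.

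Of 6 genes of retinoic acid binding and breakdown, 2 rose and none fell in the knockout, where 18.8% of all genes rose and 16.0% fell. Fabp5, a fatty acid-binding protein that also carries retinoic acid, rose by 2.31 ± 0.23 in the knockout (limma adjusted p = 1.25e-05). Cyp26b1, which degrades retinoic acid, rose from 4.20, 5.08 and 4.76 to 5.08, 5.76 and 5.90, a change of 0.90 ± 0.24 (adjusted p = 0.0138), but its interaction did not pass (adjusted p = 0.067). The lowest treated and the highest untreated array both rounded to 5.08. Outside treated knockouts the group means of Cyp26b1 were dim, at percentiles 41.2 to 43 of all genes. Cyp26a1, its epithelial relative, changed by -0.03 ± 0.13 (adjusted p = 0.874) and Crabp2 by 0.25 ± 0.11 (adjusted p = 0.104). Both signals were dim in all groups. By group mean, Cyp26a1 lay at percentiles 15.3 to 21.3 of all genes and Crabp2 at 13.4 to 20.3, so changes may not show. Of 6 receptor genes, Rarb (1.13 ± 0.15, adjusted p = 0.000112) and Rarg (0.68 ± 0.12, adjusted p = 0.0007) rose and Rxra (-0.83 ± 0.18, adjusted p = 0.00317) fell. Thus 3 of 6 were called, next to 34.8% of all genes called in either direction. For Rxra the interaction did not pass (limma adjusted p = 0.090).

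**Figure D3:**
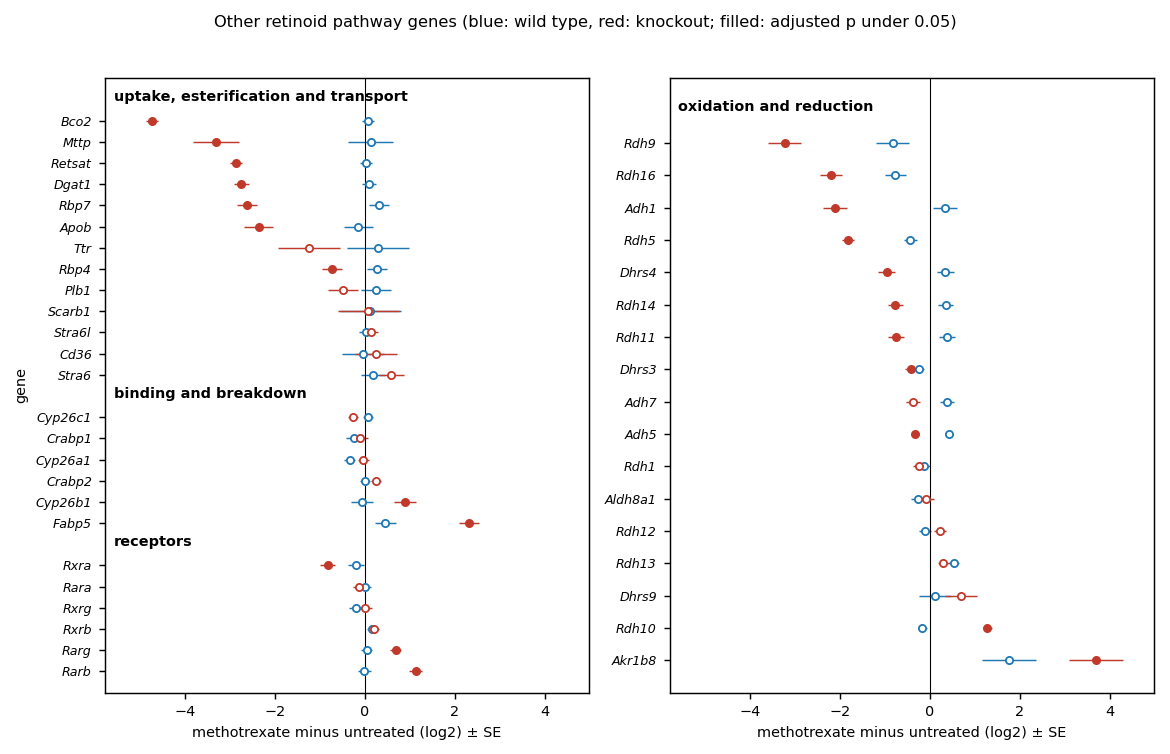
Methotrexate minus untreated (log2 units, horizontal axis) ± SE for the 42 measured pathway genes grouped by role; wild type in blue, knockout in red, filled where adjusted p is under 0.05. Filled points are red throughout, with Bco2 lowest at -4.74 and Akr1b8 highest at 3.69.

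A list of 12 genes known to be induced by retinoic acid, 10 of them measured, held 4 that rose and 2 that fell in the knockout, with a median of 0.42, where 18.8% of all genes rose and 16.0% fell. Rarb, Cyp26b1, Tgm2 (1.31 ± 0.22), a transglutaminase, and Hic1 (0.89 ± 0.10), a transcriptional repressor, rose. Isx and Dhrs3 fell. Stra6, Crabp2, Cyp26a1 and Rarres1 were not called. Of these, Stra6, Crabp2 and Cyp26a1 were dim in all groups, as was Rarres1, at percentiles 7.1 to 11.7 of all genes by group mean. The list shares Isx with the members and 6 measured genes with the groups by role. Its measured genes other than Isx, Tgm2 and Hic1 among them, are also counted in the 45 pathway genes above. Its genes moved both ways.

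Levels of cell type markers are set against the 18.8% of all genes that rose and the 16.0% that fell in the knockout. The enterocyte list had 12 of 12 genes lower in the treated knockout, with means of 6.20 to 8.32 against 11.14 to 11.52 untreated. The fibroblast list had 9 of 10 higher and 1 lower (means 9.22 to 9.28 against 7.63 to 8.04) and the macrophage list 9 of 10 higher (7.93 to 8.35 against 6.19 to 6.49). Mesothelial markers had 3 of 8 higher (6.15 to 6.39 against 5.08 to 5.26). The 3 were Msln (4.84), Upk1b (1.71) and Wt1 (0.71). The other 5 were not called, and the median change of the list was 0.38, so its mean leans on Msln. Dendritic cell markers had 2 of 11 higher and 4 lower, with means of 4.77 to 5.07 against 5.03 to 5.31. The count of dendritic markers that rose was near the share of all genes that rose. The count that fell, 4 of 11, was above the 16.0% of all genes that fell. The mesothelial count, on 8 genes, was above that share and near the 34.8% of all genes called in either direction. The part of these cell types in the changes of the retinoid genes was not tested.

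**Figure D4:**
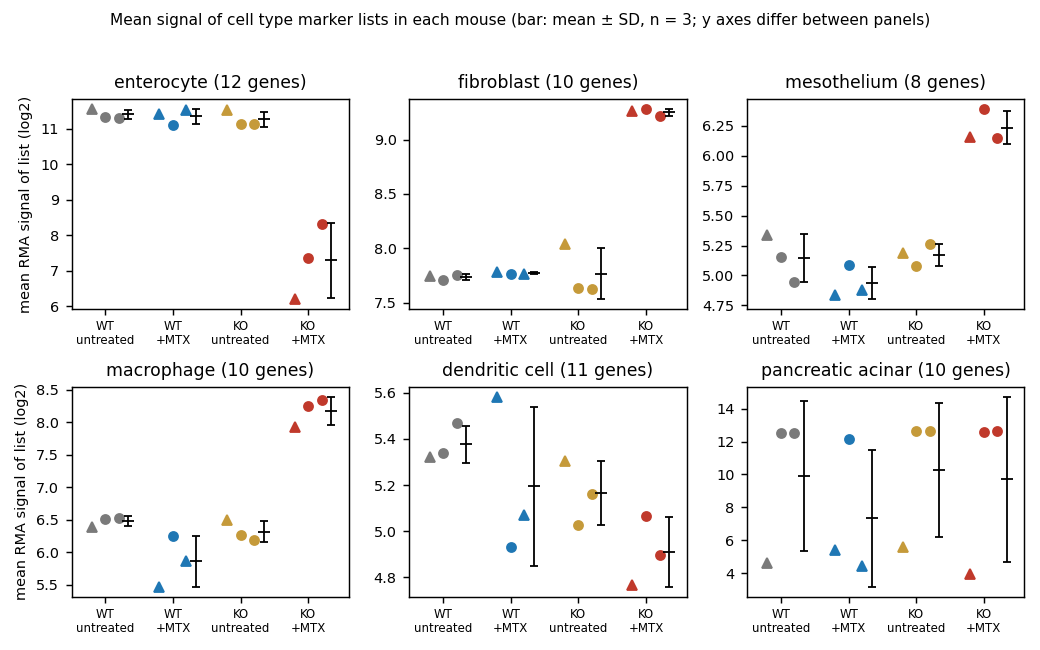
Mean RMA signal (log2 units, vertical axis, a different range in each panel) of 6 marker lists in each of 12 mice, with mean ± SD (n = 3); circles are arrays with pancreatic RNA and triangles arrays without. In the 3 treated knockout mice the enterocyte mean is 6.20 to 8.32 and the fibroblast mean 9.22 to 9.28, and acinar signal is high in 7 arrays across all groups.

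Genes with the profile nearest to each member over the 12 arrays were sought, where nearness was the root mean square difference in log2 signal after each gene was centred on its own mean. The 3 nearest named genes are given for the 7 members that varied enough. For Rbp2 they were Mttp (0.21), Slc16a5 (0.25) and Apoa1 (0.30), and for Rdh7 Slc28a1 (0.16), Otc (0.20) and H2-T3 (0.27). For Adh4 they were Gstm3 (0.49), Bco2 (0.52) and Slc27a2 (0.52). Aldh1a2 was nearest to the collagen gene Col4a2 (0.14), the connexin gene Gja1 (0.14) and Colec12 (0.15), and Aldh1a3 to Phyhd1 (0.15), Cygb (0.16) and the proteoglycan gene Bgn (0.16). Isx was nearest to Pycrl (0.15), Rnf32 (0.17) and Tmtc4 (0.17), and Aldh1a1 to Cyp2j6 (0.25), Ccdc114 (0.27) and Casp6 (0.28). Nearness of this kind depends largely on a change of like size in treated knockouts. Col4a2, Gja1 and Colec12 changed there by 2.51, 2.46 and 2.41, against 2.49 for Aldh1a2. Whether near genes share a cell source was not tested.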

How the data were processed

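The authors deposited log2 signals per probe set from RMA (background correction, between-array normalisation and summary over probes), as the submitters' processing notes and the values show. Its version and the genome build: not given in the sources used here. Values were used as deposited. Of 35556 probe sets, 21218 carried exactly 1 gene symbol in the platform annotation, 1881 carried several and 12457 had no name here. Genes with several probe sets (1386 of 18820) were read by the brightest. Array medians were 4.37 to 4.56. Arrays have no read depth, and their number limits precision.

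All 12 arrays entered 1 limma 3.58.1 fit in R 4.3.3 (lmFit, eBayes), with a mean per group and 8 residual degrees of freedom. Rises and falls are called at an adjusted p under 0.05 over all 18820 genes. Errors of changes are limma standard errors, and intervals are 95%. The fit was tested on simulated data. Every member was named whatever its values. Up to 6 pathway genes per list were named by smallest p, plus a fixed set. Members, lists and motifs were chosen with earlier results of these data known. The nearest genes were ranked only for members with a mean absolute deviation of at least 0.5, and predicted genes were left out. Some genes of the pathway lists are not reported here.

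Same-numbered mice deviated together from their group means in the knockout (correlations across genes 0.50, 0.29 and 0.43 for treated with untreated) and between untreated genotypes (0.67, 0.50 and 0.50). Replicate 2 with replicate 3 gave like values, 0.27 and 0.40 in the knockout and 0.45 and 0.48 between untreated genotypes. The values thus do not single out mice of the same number. Any pairing comes from these data, not from the labels. Replicate 1 lacked acinar RNA in all 4 groups, as did replicate 3 of treated wild type. Same-numbered values were 0.29, 0.53 and -0.49 for treated with untreated wild type and 0.12, 0.25 and -0.15 between treated genotypes. Alternatives were quantile normalisation, centring, only the groups compared, the replicate block, mean or all probe sets, a filter on dim genes, array weights, a trended robust variance, an acinar RNA block, each array left out, and, added after seeing the data, only the 7 arrays with acinar RNA.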

Additional observations from a re-analysis of the deposited data

Results flagged for a closer look

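The methotrexate effect differed between genotypes for 7 of the 9 retinoid genes by limma's interaction test (adjusted p under 0.05), where 23.8% of all genes were called. Knockout minus wild-type effects on the log2 scale were -3.63 for Rbp2, -2.04 for Isx, -5.79 for Adh4, -5.98 for Rdh7 and -2.92 for Aldh1a1. They were 2.54 for Aldh1a2 and 1.70 for Aldh1a3. All 3 treated knockout mice lay on the side given for each of the 7 genes.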

How the results depend on the processing

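The member counts in the knockout, between treated genotypes and in the interaction were 7 and ranged from 7 to 8 over all alternatives, and leaving out 1 array gave 7 to 8 in the knockout and 7 in the others. No called member lost its call or changed sign. Array weights called 3 members in the wild type (Lrat, Adh4 and Aldh1a1), 5 other pathway genes there and 4 between untreated genotypes, against 0 in each of the reported values. That fit called 9.67% of all genes in the wild type and 2.96% between untreated genotypes. Fitting only the 7 arrays with acinar RNA called 3 other pathway genes and 4.44% of all genes in the wild type, where 1 treated mouse remains and is assumed to vary like the other groups. Lrat in the knockout passed when arrays were centred (-0.44, adjusted p = 0.0302), with array weights (adjusted p = 0.0303), when untreated knockout replicate 3 was left out (-0.51, adjusted p = 0.0282) and when treated wild-type replicate 1 was (adjusted p = 0.0488), within a range of 0.0282 to 0.218. It also passed between treated genotypes in the 7 arrays with acinar RNA (0.59, adjusted p = 0.0368). The cause of these was not tested. With the replicate number as a block, Rbp2 in the knockout was -3.44 (adjusted p = 0.00143), and that block changed no call of a member. Signs flipped in 22 of 1026 refitted member changes, all for values called under neither setting. Scaling moved the median change of all genes by less than 0.1. Dim signal limits Bco1, Stra6, Cyp26a1, Crabp2 and Rarres1 in all groups. It also limits Cyp26b1 outside treated knockouts, and Adh4 and Rdh7 in treated knockouts.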

Other observations

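Among the 3 treated knockout mice, the retinoid genes ran in different orders. Replicates 1, 2 and 3 read 6.20, 8.28 and 9.76 for Rbp2, with Mttp at 6.75, 8.22 and 9.62 and Apob at 8.03, 9.08 and 9.77. Isx ran the other way, at 8.11, 7.03 and 6.74, and Aldh1a2 and Rdh10 spanned less than 0.3 log2 units. Replicate 1 was also the only treated knockout without acinar RNA, and with 3 mice no order was tested.

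Akr1b8, an aldo-keto reductase gene, was higher in treated than in untreated mice of both genotypes without overlap. It read 5.62, 5.72 and 7.22 in untreated and 7.32, 9.13 and 7.39 in treated wild type, a difference of 1.76 ± 0.60 that did not pass limma's test (adjusted p = 0.316). Its rise of 3.69 in the knockout passed, and the effects of the genotypes did not differ in the test (1.93 ± 0.85, adjusted p = 0.137).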
